A study of Homo sapiens with 6 samples.

Results

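The ESCRT machinery (endosomal sorting complexes required for transport) gathers ubiquitinated membrane proteins on endosomes, pushes the membrane away from the cytosol and cuts the neck of the bud, so that cargo ends up in multivesicular bodies and then in lysosomes or exosomes. ESCRT-0 binds ubiquitinated cargo, ESCRT-I and ESCRT-II follow it and deform the membrane, ESCRT-III forms filaments that narrow the neck, and the VPS4 ATPase takes the filaments apart. The same filaments work in the last step of cell division, in the repair of the plasma and nuclear membranes and in the budding of some viruses, where the Bro1 protein PDCD6IP (ALIX) can recruit them. In squamous carcinoma cells the pathway is known for sorting activated growth factor receptors such as EGFR to lysosomes.

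The genes described here are 33 members of this machinery, taken by name from a list of its subunits and partners, of 19740 genes with a symbol on the arrays. They are 3 genes of ESCRT-0, 8 of ESCRT-I, 3 of ESCRT-II, 12 of ESCRT-III, 3 of the VPS4 complex, 2 Bro1 proteins and 2 deubiquitinases. The RefSeq accessions of the array assigned 42 probes to them, of 34127 probes in all. Of the members 26 had 1 probe, 5 had 2 and 2 had 3.

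Total RNA came from the established human cell line CAL-27, which was derived from a squamous carcinoma of the tongue. XBP-1s is the spliced, active form of the transcription factor XBP1, which IRE1 produces during stress of the endoplasmic reticulum. The cells carried either an shRNA against XBP-1s by stable transduction (shXBP-1s, n = 3) or the negative control shRNA (shCtrl, n = 3), with no further treatment named, and each sample was hybridised to a 1-colour Agilent array. The sources used here give 1 shRNA group and 1 control group and do not say that the replicates came from separate cultures or transductions, so the p-values measure the spread between these samples, which may be technical.

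The targeted transcript was lower on every shXBP-1s array. The XBP1 probe (NM_005080, 10 spots) gave signals of 2534, 2743 and 2761 on the shCtrl arrays and 695.3, 617.1 and 550.8 on the shXBP-1s arrays. Its log2 fold change was -2.39 (SE 0.04, Benjamini-Hochberg adjusted p = 2.81e-07 in limma), and the files do not tell whether the probe reads the spliced and unspliced forms alike. Here and below, plain signals are before scaling, and log2 signals and fold changes are after scaling by the array's 75th percentile. That percentile was 687.4, 761.3 and 755.4 on the shCtrl arrays and 983.4, 894.5 and 792.0 on the shXBP-1s arrays. Falls are therefore larger, and rises smaller, after scaling than in the plain signals. Between 82.1% and 84.8% of the spots of an array were well above background and none was saturated. All 9 keratinocyte markers looked up (among them KRT5, KRT14 and TP63) were well above background on all 6 arrays, and 7 of them rose. The flag was also set on all 6 arrays for 4 of 4 leukocyte and 3 of 3 endothelial markers, so it did not separate cell types here. Of 4 fibroblast markers, COL3A1 and THY1 were well above background on no array and the other 2 fell. The mean log2 signal of these 4 lay between -5.36 and -4.89 in shCtrl and between -5.89 and -5.49 in shXBP-1s, and its part in the results was not tested. Control arrays 2 and 3 were scanned together, and control array 1 was scanned together with the 3 shXBP-1s arrays, each scan being taken as 1 slide. A fold change within the slide of the shXBP-1s arrays therefore rests on 1 control array.

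Most of the ESCRT machinery changed little at the transcript level in cells with the shRNA against XBP-1s, and MVB12B, VPS36, CHMP3, VTA1 and PDCD6IP stood apart. In these bulk samples, less RNA per cell and fewer cells with the RNA cannot be told apart. A probe passed the test at an adjusted p below 0.05 (limma, Benjamini-Hochberg over the 27624 tested probes, 2-sided) and was called if it also changed at least 2-fold. All 42 member probes were well above background on all 6 arrays and were tested. Of these, 5 were called lower and 0 higher, against 4.9% of all tested probes (2.61% lower and 2.29% higher). The 5 were the brighter 2 of the 3 MVB12B probes, the VPS36 probe, the dimmer of the VTA1 probes and the brighter of the PDCD6IP probes. Without a minimum fold change, 5 probes rose and 8 fell, which is 31.0% of the 42 against 41.7% of all tested probes (18.4% higher and 23.3% lower).

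Taking each gene by its brightest probe, 2 of the 33 members rose (CHMP3 and VPS4B), 5 fell (MVB12B, VPS36, PDCD6IP, CHMP1B and CHMP2A) and 26 did not pass. Of the 5 that fell, MVB12B, VPS36 and PDCD6IP were called, which is 3 of 33 genes against 5.18% of all genes (2.88% lower and 2.3% higher). PDCD6IP counts as a fall only through this choice of probe. Its other probe rose by 0.68 on the log2 scale (adjusted p = 1.24e-04 from limma) and was the brighter on every shXBP-1s array. The direction of the split into rises and falls turned with the settings. It was 5 higher and 4 lower with quantile normalization (VPS37B, VPS37C and UBAP1 then rose as well) and on the deposited log2 values. It was 4 and 3 under normexp, an alternative background correction, and 6 and 4 without shCtrl array 1. CHMP1A, CHMP4B, CHMP4C and PTPN23 also rose without shCtrl array 1. In that setting the groups lie on separate slides, so group and slide cannot be told apart. Within the slide of the shXBP-1s arrays, against shCtrl array 1 alone, the log2 fold changes of these 4 genes were 0.02, 0.004, -0.02 and 0.06. The share past the test was 21.2% for the members and 46.4% for all 16821 genes (18.9% higher, 27.5% lower). Under normexp 7 of the 33 members passed against 20.8% of all genes, so the members' share was not below that of all genes there. The median log2 fold change was 0.04 for the members and -0.04 for all genes, and the median size of the change without its sign was 0.11 for the members and 0.23 for all genes. In the 29 member probes that did not pass, every 95% interval of the log2 fold change lay within 1.5-fold of no change, from -0.25 at the lowest bound to 0.56 at the highest. The groups did not overlap for 10 member probes higher and 9 lower in shXBP-1s, against 23.9% and 28.5% of all tested probes.

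**Figure D1:**
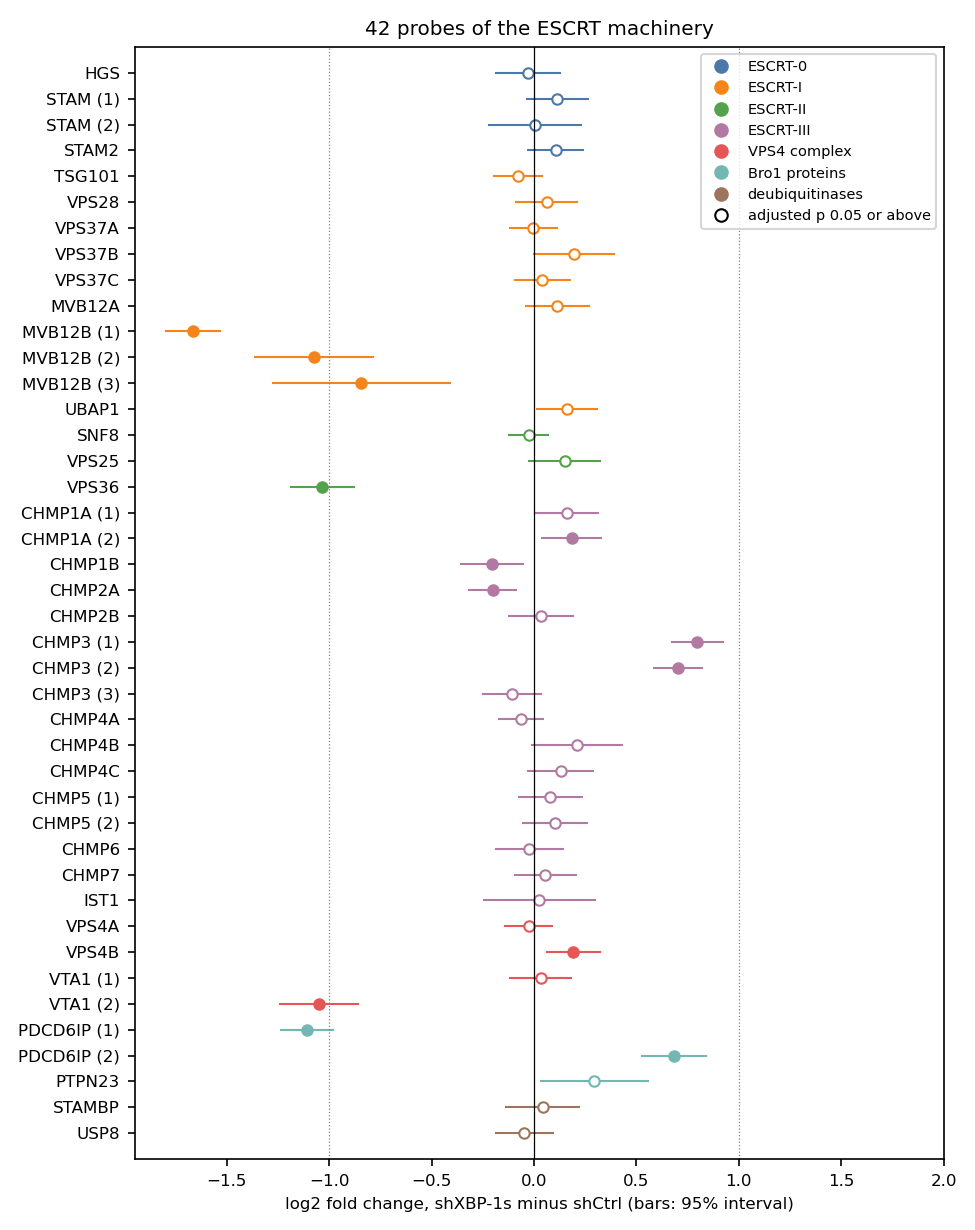
Log2 fold change (shXBP-1s minus shCtrl, x axis) of the 42 probes of the ESCRT machinery (y axis, numbered from the brightest where a gene has several), with bars for the 95% interval, colours for the complexes and filled points for an adjusted p below 0.05. Dotted lines mark 2-fold. Most points lie near 0, and 2 of the 3 MVB12B probes, VPS36, 1 probe of VTA1 and 1 probe of PDCD6IP lie at or beyond 2-fold on the lower side.

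**Figure D2:**
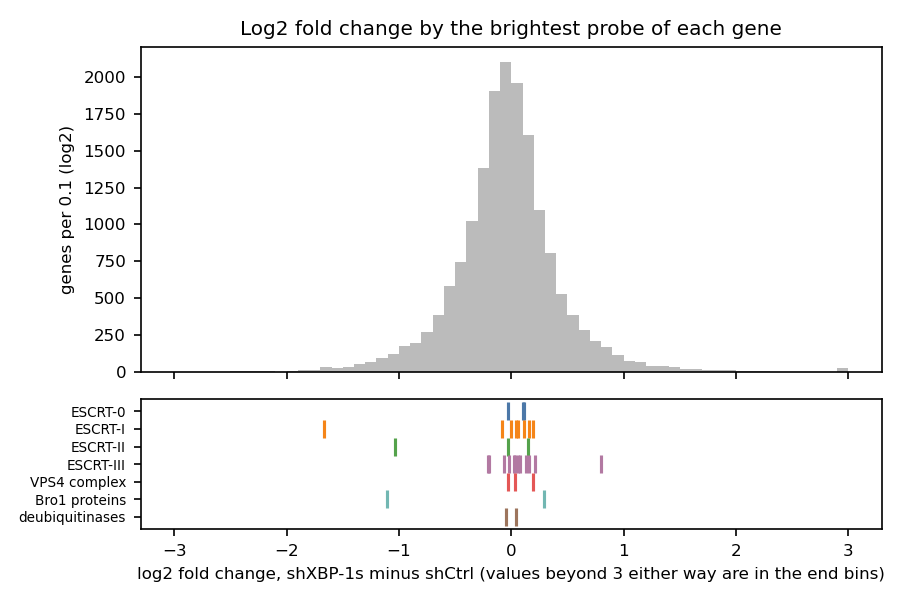
Upper panel, number of genes (y axis) by log2 fold change of their brightest probe (x axis, in steps of 0.1) for all 16821 tested genes. Lower panel, the 33 members on the same axis, 1 tick per gene and 1 row per complex. Only MVB12B, VPS36 and PDCD6IP lie beyond -1, and CHMP3 is the rightmost tick at 0.80.

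In ESCRT-0, none of the 4 probes passed the test. HGS (HRS), the subunit that binds ubiquitin and the endosomal lipid PI3P, had a log2 fold change of -0.03. Its partners STAM and STAM2, which bind ubiquitin and recruit deubiquitinases, had values of 0.11 and 0.00 for the probes of STAM and 0.11 for STAM2. The groups overlapped for all 4 probes.

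ESCRT-I held the member with the largest fold change, MVB12B, a subunit that caps the rod-shaped complex and binds ubiquitin and membrane. Its brightest probe (NM_033446) had signals of 429.6, 525.5 and 510.2 on the shCtrl arrays and of 208.9, 185.2 and 164.7 on the shXBP-1s arrays. Every shXBP-1s array was below every shCtrl array, a fall of 3.17-fold (log2 fold change -1.66, SE 0.06, adjusted p = 1.52e-06 from limma). A second probe, listed under NM_001011703, had signals of 31.07, 36.30 and 33.55 in shCtrl and 18.72, 21.52 and 17.70 in shXBP-1s. It too was called, with a log2 fold change of -1.08 (SE 0.12, adjusted p = 2.63e-04 from limma). The third probe was the dimmest, with signals of 19.81, 20.31 and 20.86 in shCtrl and 19.55, 11.09 and 11.83 in shXBP-1s, so array 1 of shXBP-1s was close to the controls before scaling. It fell by 0.84 on the log2 scale (SE 0.19, adjusted p = 0.00786 from limma), short of 2-fold. All 3 probes of MVB12B fell in this fit, the groups overlapped for none after scaling, and the dimmer probes fell by less, by 0.82 and 0.59 on the log2 scale (adjusted p = 0.0119 and 0.0109 over 4875 probe pairs).

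The brightest MVB12B probe was called in all 17 alternatives tried, with log2 fold changes from -1.71 to -1.30. The second probe no longer passed under normexp (-1.04, adjusted p = 0.451), and it was short of 2-fold without shXBP-1s array 1 (-0.98). The third probe did not pass under normexp either (-1.02, adjusted p = 0.451). Under normexp followed by quantile normalization both passed with much smaller log2 fold changes, of -0.27 and -0.18, so the size of the fall at these dim probes depends on the background correction.

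The other ESCRT-I members did not pass the test. TSG101, the subunit that binds PTAP motifs in cargo adaptors and viral Gag proteins, had a log2 fold change of -0.08, and VPS28, which links the complex to ESCRT-II, had 0.06. The VPS37 paralogues among the members, alternative subunits of the stalk, had values of 0.00 for VPS37A, 0.20 for VPS37B and 0.04 for VPS37C. A further paralogue, VPS37D, is not on the member list and fell by 1.30 on the log2 scale (adjusted p = 2.95e-06 from limma). MVB12A, the paralogue of MVB12B, had a value of 0.11 and UBAP1, which takes the place of MVB12 in a form of ESCRT-I specialised for endosomal sorting, had 0.16. The log2 signal of UBAP1 was 0.84, 0.70 and 0.80 in shCtrl and 1.04, 0.95 and 0.84 in shXBP-1s, where the groups were nearly in contact (SE 0.06, adjusted p = 0.0753 from limma). VPS37B had signals of 1092, 1436 and 1516 in shCtrl and 2037, 1818 and 1699 in shXBP-1s, and on shCtrl array 1 it was also the lowest after scaling (0.67 on the log2 scale). Within the shared slide its difference was accordingly larger, 0.39 (adjusted p = 0.00394 from limma with the slide as a block), against 0.20 (adjusted p = 0.0989) over all arrays.

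ESCRT-II is built from SNF8 (EAP30), VPS36 and copies of VPS25, and VPS36 is the subunit that binds ubiquitin and PI3P. VPS36 had signals of 525.7, 554.6 and 587.4 on the shCtrl arrays and 332.7, 345.4 and 306.6 on the shXBP-1s arrays. No arrays overlapped, and after scaling the fall was 2.05-fold (log2 fold change -1.03, SE 0.07, adjusted p = 1.37e-05 from limma). The size lay at the 2-fold limit. It was -0.999 on the deposited log2 values, -0.97 without shXBP-1s array 1, -0.92 under normexp and -0.82 under normexp followed by quantile normalization, and with each of these VPS36 was no longer called although its adjusted p stayed below 0.05. The partners of VPS36 in the complex did not pass, with log2 fold changes of -0.03 for SNF8 and 0.15 for VPS25. VPS25 resembled VPS37B in that shCtrl array 1 was the lowest array (0.44 on the log2 scale, against 0.64 and 0.70 on the other control arrays), and within the shared slide it was 0.30 higher in shXBP-1s (adjusted p = 0.0173 from limma with the slide as a block).

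In ESCRT-III, 3 of 16 probes rose, 2 fell, and none was called. The member that moved most was CHMP3 (VPS24), which joins the filament late and takes part in halting its growth. Its brightest probe (NM_016079) had signals of 940.2, 1044 and 1111 on the shCtrl arrays and 2301, 2164 and 2026 on the shXBP-1s arrays. This was a rise of 1.74-fold (log2 fold change 0.80, SE 0.05, adjusted p = 1.65e-05 from limma), with no overlap. A probe listed under NM_001193517 gave 952.4, 964.0 and 984.3 against 2055, 1948 and 1714, a log2 fold change of 0.70 (SE 0.05, adjusted p = 2.16e-05 from limma). The remaining CHMP3 probe, under the same accession as the brightest, did not rise. Its signals were 125.8, 137.5 and 136.3 in shCtrl and 167.2, 156.1 and 126.8 in shXBP-1s, which is a log2 fold change of -0.11 (adjusted p = 0.191 from limma) after scaling. The gap between it and the brightest probe was -0.91 on the log2 scale (SE 0.09, adjusted p = 1.09e-04 over the probe pairs).

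CHMP2A, a core subunit that acts with CHMP3, fell slightly. Its log2 signal was 2.77, 2.66 and 2.72 in shCtrl and 2.45, 2.53 and 2.55 in shXBP-1s, and it changed by -0.20 on the log2 scale (SE 0.05, adjusted p = 0.0130 from limma). Under normexp it was -0.11 and did not pass (adjusted p = 0.451). CHMP1B, which binds the microtubule-severing ATPase spastin, had log2 signals of 0.69, 0.69 and 0.60 in shCtrl and 0.37, 0.41 and 0.59 in shXBP-1s. The nearest arrays of its groups were almost level. Its fall of 0.20 on the log2 scale (SE 0.07, adjusted p = 0.0375 from limma) did not pass in 12 of 17 alternatives. Its paralogue CHMP1A had values of 0.16 (adjusted p = 0.088) and 0.18 (adjusted p = 0.0464 from limma) by its 2 probes, of which the dimmer passed. This rise did not pass with the slide as a block (adjusted p = 0.118) or with any array left out (adjusted p from 0.0697 to 0.148), and the value was -0.37 under normexp.

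The other ESCRT-III members did not pass. Log2 fold changes were 0.03 for CHMP2B, -0.06 for CHMP4A, 0.21 for CHMP4B and 0.13 for CHMP4C, of which the CHMP4 proteins form the main body of the filament. CHMP5, which binds VTA1, had 0.08 and 0.10 by its probes. CHMP6, which passes the signal from ESCRT-II to CHMP4, had -0.02. CHMP7, which acts at the nuclear envelope, had 0.06, and IST1, which coats outward tubules with CHMP1B, had 0.03.

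The VPS4 complex recycles the filaments. VPS4B, an ATPase subunit, had log2 signals of 1.95, 1.83 and 1.85 in shCtrl and 2.01, 2.05 and 2.16 in shXBP-1s, and rose by 0.19 (SE 0.06, adjusted p = 0.0274 from limma). Within the shared slide the value was 0.12. VPS4B did not pass the test in 7 of 17 alternatives, among them the slide as a block. VPS4A, the other ATPase subunit, had a log2 fold change of -0.03.

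VTA1 (LIP5), the cofactor that stimulates VPS4, was read by 2 probes that are listed under the same accession (NM_016485) and did not move together. The brighter had signals of 862.1, 850.5 and 875.0 on the shCtrl arrays and 1244, 1091 and 892.7 on the shXBP-1s arrays. After scaling its groups overlapped, with a log2 fold change of 0.03 (95% interval -0.12 to 0.18, adjusted p = 0.714 from limma). The dimmer probe had 477.5, 453.7 and 484.6 against 332.2, 279.2 and 225.5, with no overlap, a fall of 2.07-fold (log2 fold change -1.05, SE 0.08, adjusted p = 3.58e-05 from limma). The difference between the probes was itself tested and was -1.08 on the log2 scale (SE 0.06, adjusted p = 1.02e-05 over the probe pairs). The fall of the dimmer probe was just short of 2-fold without shCtrl array 1 (-0.99) or without shXBP-1s array 3 (-0.98) and was -0.87 under normexp followed by quantile normalization, where it was not called. Within the shared slide it was -1.16.

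Among the Bro1 proteins, PDCD6IP (ALIX) connects ESCRT-I and cargo to the CHMP4 filament and binds syntenin in exosome formation. Its 2 probes, both under NM_013374, moved in opposite directions. The brighter had signals of 502.3, 516.1 and 534.2 on the shCtrl arrays and 332.6, 281.8 and 260.3 on the shXBP-1s arrays. It fell by 2.15-fold (log2 fold change -1.11, SE 0.05, adjusted p = 4.44e-06 from limma). The other had 235.2, 229.6 and 242.1 in shCtrl and 538.3, 457.1 and 387.4 in shXBP-1s. It rose by 1.61-fold (log2 fold change 0.68, SE 0.07, adjusted p = 1.24e-04 from limma). Neither probe had overlapping groups, and the probes differed by 1.79 on the log2 scale (SE 0.07, adjusted p = 2.72e-06 over the probe pairs). Under normexp the fall was -0.99, just short of 2-fold and so not called, and the rise was 0.37, which no longer passed (adjusted p = 0.110). Under normexp followed by quantile normalization they were -0.85 and 0.52, and the fall was again not called.

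Of the 4875 probe pairs, 6.71% differed by at least 1 on the log2 scale at an adjusted p below 0.05, as did 2 of the 9 pairs of the members. Of all 4053 genes with at least 2 tested probes, 7.72% had such a pair, and among the 7 such members 2 did (VTA1 and PDCD6IP). The probe sequences and their positions in the transcripts were not used here, so the data do not show which of the probes follows the protein-coding transcript. PDCD6IP and VTA1 are also in the primer list of the study. The study reports that qRT-PCR in CAL-27 with XBP-1s knocked down gave lower levels for genes taken from its arrays. Apart from TPP2, its text does not name those genes, and the PCR values were not used here to choose between the probes. The choice of PDCD6IP and VTA1 may rest on these same arrays, so their changes here are not independent evidence. The probes of STAM, CHMP1A and CHMP5 differed by no more than 0.11 on the log2 scale, and their differences did not pass (adjusted p = 0.387, 0.866 and 0.769).

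**Figure D3:**
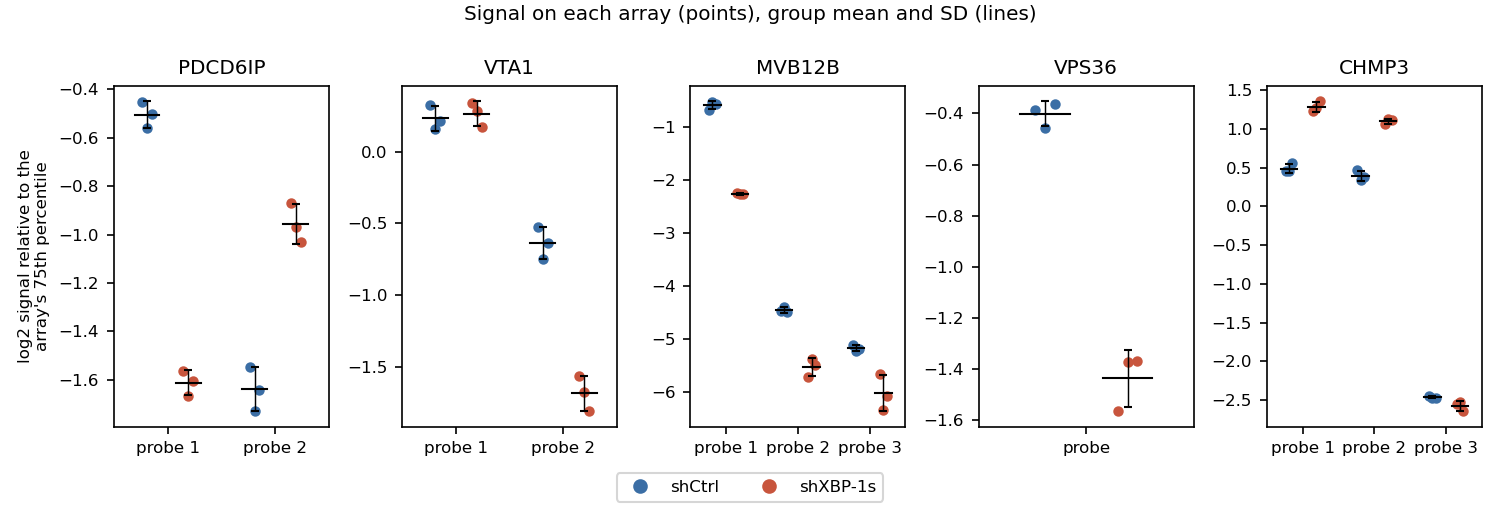
Log2 signal relative to the 75th percentile of the array (y axis, a separate range for each gene) on each of the 6 arrays, for every probe of PDCD6IP, VTA1, MVB12B, VPS36 and CHMP3, with the brightest probe of a gene on the left. Points are arrays, horizontal lines are group means and bars are the SD (n = 3). The PDCD6IP probes cross, 1 VTA1 probe is level while the other drops, all 3 MVB12B probes drop, and 2 of the 3 CHMP3 probes rise.

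PTPN23 (HD-PTP), a Bro1 protein that carries receptors through the ESCRT steps, varied more in shCtrl than in shXBP-1s. Its log2 signal was -1.86, -2.09 and -2.35 in shCtrl and -1.81, -1.81 and -1.80 in shXBP-1s, which gave a difference of 0.29 on the log2 scale (SE 0.11, adjusted p = 0.0714 from limma). Within the shared slide the value was 0.06. The deubiquitinases STAMBP (AMSH) and USP8, which remove ubiquitin from cargo before it enters the vesicle, had log2 fold changes of 0.04 and -0.05, with adjusted p of 0.696 and 0.566.

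Several subunits have paralogues that take the same place in a complex, so the balance within 11 such pairs was compared on each array, as the log2 difference between the brightest probes of both genes. A shift of this difference shows unequal change and not a ratio of transcript numbers. In 6 of the 11 pairs the groups did not overlap, beside 52.4% of all single tested probes, and the same share over all pairs of genes was not computed. No overlap is the smallest 2-sided exact permutation p that 3 arrays against 3 allow (0.1, or 0.183 with Benjamini-Hochberg adjustment over the 11 pairs). For MVB12A over MVB12B the difference moved by 1.78 in favour of MVB12A, from -1.96 ± 0.12 (SD, n = 3) to -0.18 ± 0.05 (SD, n = 3). The other shifts were at most 0.37 in size. VPS37D, which fell but is not on the member list, was in none of the pairs. For CHMP1A over CHMP1B the shift was 0.37, for CHMP2A over CHMP2B -0.23, for CHMP4A over CHMP4B -0.27, for CHMP4A over CHMP4C -0.19 and for VPS37A over VPS37B -0.20. Within the shared slide the shift was -0.11 for CHMP4A over CHMP4B, -0.09 for CHMP4A over CHMP4C, -0.39 for CHMP2A over CHMP2B and -0.35 for VPS37A over VPS37B. VPS4A over VPS4B (-0.22) and STAM over STAM2 (0.01) overlapped between the groups, as did 3 further pairs.

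XBP-1s binds DNA elements with an ACGT core, such as the UPRE, and the CCACG part of the ERSE, which also carries a CCAAT box for NF-Y. The 250 bases before the RefSeq gene start (GRCh38.p14) were read for the 25 of 33 members whose promoters matched by symbol. They are shown for the 4 members with a called probe, 5′ to 3′ on the strand of the gene and ending at the base before the start. Capitals mark CCACG and ACGT in either orientation.
MVB12B, chr9:126326579-126326828, plus strand: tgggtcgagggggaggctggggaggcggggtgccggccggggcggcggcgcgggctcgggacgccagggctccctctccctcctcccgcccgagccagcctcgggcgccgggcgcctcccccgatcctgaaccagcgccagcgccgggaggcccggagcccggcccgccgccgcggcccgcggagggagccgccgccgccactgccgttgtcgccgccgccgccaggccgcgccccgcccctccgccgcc
VPS36, chr13:52450635-52450884, minus strand: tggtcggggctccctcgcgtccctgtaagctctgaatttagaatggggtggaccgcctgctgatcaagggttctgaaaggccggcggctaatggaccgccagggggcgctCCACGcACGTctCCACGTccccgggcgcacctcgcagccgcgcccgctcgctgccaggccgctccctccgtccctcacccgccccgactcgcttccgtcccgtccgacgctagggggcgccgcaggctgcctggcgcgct
VTA1, chr6:142147013-142147262, plus strand: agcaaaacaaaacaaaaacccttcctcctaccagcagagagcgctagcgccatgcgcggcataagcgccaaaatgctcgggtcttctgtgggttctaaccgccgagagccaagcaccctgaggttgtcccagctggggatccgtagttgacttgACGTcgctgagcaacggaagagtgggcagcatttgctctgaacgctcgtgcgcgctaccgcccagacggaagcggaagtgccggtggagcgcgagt
PDCD6IP, chr3:33798380-33798629, plus strand: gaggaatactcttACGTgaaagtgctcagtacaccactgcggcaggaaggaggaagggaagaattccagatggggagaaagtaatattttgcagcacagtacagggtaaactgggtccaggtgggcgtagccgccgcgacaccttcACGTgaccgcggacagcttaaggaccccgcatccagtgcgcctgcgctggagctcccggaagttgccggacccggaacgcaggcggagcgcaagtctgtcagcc

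MVB12B, the member with the largest fall, had neither CCACG nor ACGT in this window. VPS36 had CCACG and ACGT 2 times each, between 140 and 123 bases before the start, and the second CCACG overlapped the second ACGT. VTA1 had 1 ACGT, 96 to 93 bases before the start, and PDCD6IP had 2, at 237 to 234 and 104 to 101 bases. The UPRE core TGACGTGG, the ERSE (CCAAT, 9 bases of any kind, CCACG) and the ERSE-II (ATTGG, any base, CCACG), all searched on both strands, were found in 0 of the 25 member promoters. They were found in 0.753%, 0.129% and 0.0912% of the 13151 promoters of tested genes, and the XBP1 promoter itself held an ERSE 52 to 34 bases before the start. CCACG was found in 7 of the 25 members and 41.5% of those promoters, and ACGT in 17 of the 25 members and 34.6%. CCACG is contained in the ERSE motifs, and ACGT in the UPRE core. A match is a run of letters, not a shown binding site, and the elements may lie outside this window.

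The machinery works with adaptors, tethers and lipid enzymes of the endosome, which were read from 5 lists of other genes, each by its brightest probe. Of 66 tested genes, 11 rose and 27 fell, 1 was called higher and 6 lower, and the median log2 fold change was -0.12. With the slide as a block 5 rose and 22 fell, and 6 rose under normexp, without shCtrl array 3 or without shXBP-1s array 2. Shares of all genes past the same test were 18.9% higher and 27.5% lower, and shares called were 2.3% higher and 2.88% lower. Cargo adaptors and partners of ESCRT accounted for 13 of the falls among 26 genes, with 2 rises and 4 genes called lower. These counts also rest on the choice of probe. TOM1L2 counted as a fall (-0.24) but had 0.35 by another probe. CC2D1B counted as a rise (0.47) but had a probe at -0.29. SPART (spartin), which binds IST1, fell by 1.61 (SE 0.08, adjusted p = 3.93e-06 from limma) and VPS37D, the remaining VPS37 paralogue, by 1.30 (SE 0.06, adjusted p = 2.95e-06 from limma), both on the log2 scale. The SPART probe was dim, with mean log2 signals of -2.22 in shCtrl and -3.83 in shXBP-1s. EPS15, an endocytic adaptor that joins HGS and STAM, fell by 1.08 on the log2 scale and LITAF, a membrane protein that binds TSG101 and STAM, had a log2 fold change of -1.002. SPAST (spastin), which CHMP1B and IST1 recruit, had a log2 fold change of -0.96.

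The list of HOPS and CORVET, which tether late and early endosomes, also held the related VPS33B and VIPAS39. It had 3 rises and 1 fall among 10 genes. VPS33A (0.39), VPS16 (0.25) and VPS8 (0.25) were higher and TGFBRAP1 (-0.29) was lower on the log2 scale. The list of retromer, which returns receptors from endosomes, and sorting nexins had 4 falls among 10 genes. Of the retromer subunits VPS35, VPS29, VPS26A and VPS26B, only VPS26A passed. SNX1, a membrane-bending sorting nexin, had a log2 fold change of -1.14 (SE 0.08, adjusted p = 2.77e-05 from limma), whereas SNX2, SNX6 and VPS26A fell by at most 0.22 on that scale. Of the 9 enzymes and regulators of endosomal phosphoinositides, which make or remove the PI3P that HGS and VPS36 bind, 4 fell and 1 rose. UVRAG, a subunit of the PI3-kinase complex, had a log2 fold change of -1.01 and the phosphatase MTMR2 of -0.85. PIKFYVE and PIK3C3 had -0.50 and -0.34, and the phosphatase MTM1 had 0.58. The other MTMR2 probe was at -1.05, and the 3 PIKFYVE probes ranged from -0.86 to -0.32.

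Exosome and tetraspanin genes went both ways, with 5 rises and 5 falls among 11. RAB27B and RAB27A, GTPases that bring secretory vesicles to the plasma membrane, had log2 fold changes of 1.34 (SE 0.08, adjusted p = 7.36e-06 from limma) and -0.90 (SE 0.06, adjusted p = 1.34e-05 from limma). The RAB27B probe was dim, with mean log2 signals of -3.89 in shCtrl and -2.55 in shXBP-1s. Its fold change under normexp is not given here. SDC1, a syndecan of the syntenin and PDCD6IP pathway, had 0.68 and ARF6, a GTPase of the same pathway, had -0.71.

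**Figure D4:**
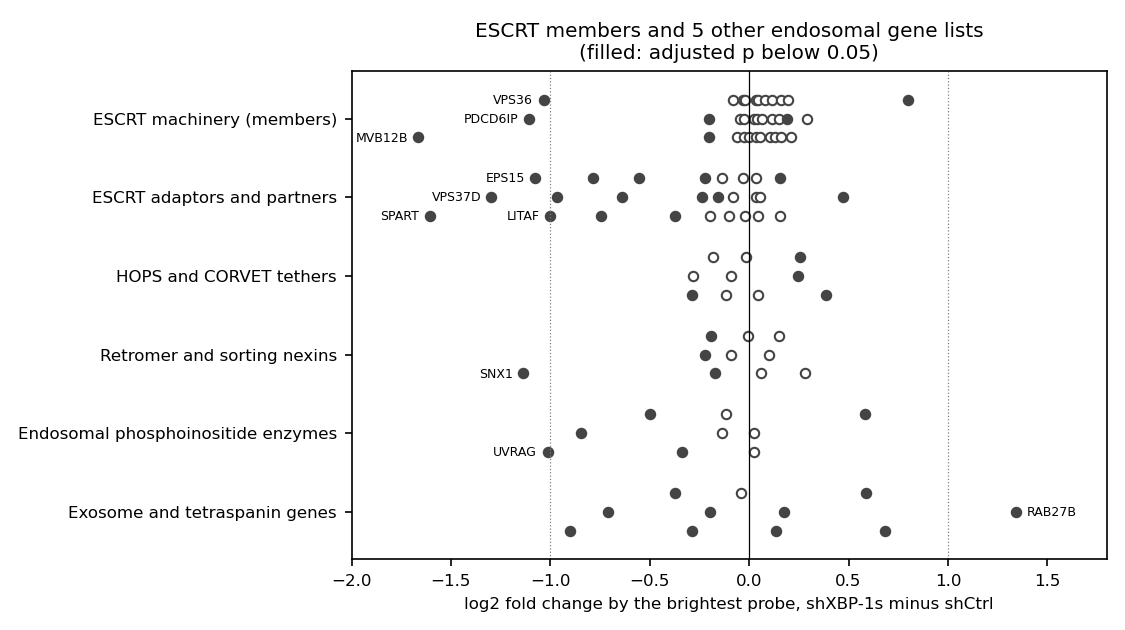
Log2 fold change (shXBP-1s minus shCtrl, x axis) by the brightest probe of each gene, for the 33 members and the 66 tested genes of the 5 other endosomal lists (rows, with points spread vertically for legibility). Filled points have an adjusted p below 0.05, dotted lines mark 2-fold and genes beyond it are named. Most members sit close to 0 as open points, and the adaptor list has 13 filled points on the lower side.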

How the data were processed

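Total RNA of 6 CAL-27 samples was measured on 1-colour Agilent arrays. Per the file headers, the spot intensity deposited by the authors is the background-subtracted signal of Agilent Feature Extraction 11.0.1.1, not normalized between arrays. The authors also deposited log2 values with equal medians on the 6 arrays (r at least 0.99998 with the scanner signals), used as an alternative only. The submitters' processing notes name RMA, the study's methods give no normalization, and the labels describe a NimbleGen labelling procedure.

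From each log2 intensity the 75th percentile of the non-control spots was subtracted, flagged spots (230 to 377 per array) were left out, and replicate spots were averaged. A probe entered the test if over 50% of its spots were well above background on every array of shCtrl or of shXBP-1s. The fit used limma 3.58.1 (R 4.3.3, lmFit and eBayes with trend, Benjamini-Hochberg over 27624 probes), and differences between probes of a gene were fitted likewise over 4875 pairs. It was checked on simulated data. The number of arrays limits the precision. Symbols and promoters came from RefSeq (GRCh38.p14), and promoters of VPS28, VPS37A, VPS37C, CHMP3, CHMP4C, CHMP6, CHMP7 and STAMBP were not matched.

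The members, lists and tests were chosen with earlier results of these data known. Every member is given by its log2 fold change, with values on every array for XBP1, called probes, PDCD6IP, VTA1 and the 6 other members with the smallest p. Of each other list, up to 4 genes with the smallest p past the test are named. The remaining probes of MVB12B and CHMP3, VPS37B, VPS25, LITAF and the further HOPS, retromer and lipid genes were added after their values were seen. Alternatives were normexp (offset 50, median spot signal), quantile normalization, the deposited log2 values, no filter or a stricter filter on dim probes, the methods' t-test, limma with no variance trend, the replicate number or slide as a block, leaving out each array, the mean over probes and, added later, normexp followed by quantile normalization.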

Additional observations from a re-analysis of the deposited data

How the results depend on the processing

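The direction of the XBP1 fall held in all alternatives (log2 fold change from -2.40 to -2.11), as did the count of 2 members whose probes differed. The median log2 fold change of the members stayed between 0.01 and 0.08. The number of member probes called lower was 5, and it was 2 under normexp and 1 under normexp followed by quantile normalization, an alternative chosen after seeing the data, where the brightest MVB12B probe remained. It was 4 or 5 in every other alternative and from 4 to 5 with each array left out. The probes called were not always the same. Without shXBP-1s array 1, VPS36 (-0.97) and the second MVB12B probe (-0.98) were not called, and the third MVB12B probe (-1.025) was. Normexp alone moved the median log2 fold change of all genes from -0.04 to -0.29, so member values under it are to be read against that shift. Without a minimum fold change 5 member probes rose and 8 fell. The rises were 8 with quantile normalization and 8 on the deposited log2 table, beside 7 falls in both, so the split of members turns with the scaling. Rises ranged from 3 to 8 with each array left out (8 without shCtrl array 1, and 3 without shCtrl array 2 or without shXBP-1s array 2). Without shCtrl array 1 the groups lie on separate slides, so that count cannot be told apart from a slide difference. Falls were 4 under normexp. Under normexp 24 genes of the other endosomal lists passed, against 38. The brighter VTA1 probe, which passed in none, changed sign under normexp (-0.004), with the slide as a block (-0.061), without shCtrl array 2 (-0.003), without shXBP-1s array 1 (-0.004) and under normexp followed by quantile normalization (-0.010), and PTPN23 changed sign under normexp (-0.027). The cause of these changes was not tested. Of 221 alternative values for the named member probes, 188 kept their direction and their side of the p threshold. By p, 22 lost and 5 gained the threshold, and 6 changed sign. The 2-fold limit had no part in this count. Values of VPS36, the dimmer VTA1 probe, the brighter PDCD6IP probe and the second MVB12B probe that fell short of 2-fold are among those kept. Same-numbered arrays of the groups correlated in their deviations from the group means at -0.016, 0.117 and -0.116, so the numbers were not taken to pair samples. With the replicate number as a block (replicate block), 5 member probes were called lower and 0 higher, 4 rose and 7 fell past the threshold, XBP1 stood at -2.39, the median at 0.04, the members with differing probes at 2, and 33 genes of the other lists passed.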
